A study of Mus musculus with 8 samples.

Results

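Neuroblasts of the mouse dentate gyrus were compared according to whether they carried transcripts of a recombined Cre reporter. Of 26036 deposited cell barcodes, 24376 passed the quality limits, above 500 detected genes and below 10% of UMIs from mitochondrial genes (UMIs are unique molecular identifiers, each standing for 1 captured transcript), and 1474 of these were neuroblasts. A neuroblast was a cell with UMIs of at least 3 of the genes Neurod1, Igfbpl1, Sox11, Dcx and Cd24a, with no UMI of Eomes or Neurog2, with at most 2 of 10 replication and division genes (Mcm2 to Mcm7, Pcna, Top2a, Cdk1, Ccnb1) and with at most 1 of the genes Mog, Mag, Mobp, Cx3cr1, Cldn5 and Pdgfra. The reporter states were chosen by the summed UMIs of WPRE and bGHpolyA, the 3′ elements of the tdTomato transgene. A cell was recombined with more than 1 such UMI in libraries of 10x Version 2 chemistry or more than 2 in Version 3, and unrecombined at 0. This gave 513 recombined and 663 unrecombined neuroblasts, and 298 cells between the limits entered no comparison. The states differed in the markers that chose the cells. All 5 were detected in 342 of the recombined (66.7%) and 316 of the unrecombined neuroblasts (47.7%), though in the first experiment at 2 months in 53.2% and 55.6%. The states also differed in UMIs per cell, given below, and the part of depth in these shares was not tested.

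All mice were of the Ki67TD-NES line, heterozygous for Ki67-creERT2, Nestin-GFP and Gt(ROSA)26Sor tm9(CAG-tdTomato)Hze on a mixed C57BL/6J and CD1 background, and all had received tamoxifen by oral gavage before the dentate gyrus was dissected. CreERT2 was thus driven by Mki67, a gene of cycling cells, and GFP by Nestin, a gene of neural stem and progenitor cells. There was 1 experiment at 1 month of age, 3 at 2 months and 3 at 6 months, each of several male and female mice pooled. The 7 experiments and not the cells were thus the replicates. The age of 6 months is that of the labels, while the study's methods give these 3 experiments a span of ages that starts at 6 months. Sorted GFP+tdT+ and GFP+tdT- cells were loaded together, except in the first experiment at 2 months, which had separate libraries labelled GFP+tdT+ and GFP-tdT- (recorded so in the labels) and GFP+tdT-. The experiments at 2 months used Version 2 chemistry and the others Version 3, so that between 2 and 6 months age and chemistry cannot be told apart.

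Neuroblasts are the migrating, newly committed neurons that intermediate progenitors give rise to in the subgranular zone, and they go on to become granule neurons. During this step cells leave the cycle, assemble a microtubule cytoskeleton and begin to extend processes. In a mouse of this design, Cre made by a cycling cell removes the floxed stop sequence in front of tdTomato, and daughters of that cell inherit the recombined allele. By this design, a recombined neuroblast is one whose ancestor, or which itself, was in cycle when tamoxifen was present. An unrecombined one has not met both conditions, has escaped recombination, or held reporter transcripts that were not captured. A cell called recombined by its UMIs need not be so either, and checks of the call are given below.

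The number of recombined neuroblasts per experiment was 27 (second experiment at 6 months) to 117 (1 month), and that of unrecombined neuroblasts 30 to 222. Recombined cells made up 26.3% to 50.8% of the neuroblasts of an experiment. This share depends on how many cells of each sorted gate were loaded, so it is not a labelling rate. In Version 2 libraries 99 cells sat just inside the limit with 2 reporter UMIs and 170 just outside with 1, and in Version 3 libraries 40 cells had 3 and 47 had 2. The sort gave a separate reading in the first experiment at 2 months. There, 58 of the 71 neuroblasts called from the library labelled GFP+tdT+ and GFP-tdT- were recombined (81.7%, exact 95% interval 70.7% to 89.9%), against 4 of 124 from the GFP+tdT- library (3.23%, 0.886% to 8.05%). As a background for the call, 78 of 6938 oligodendrocytes (at least 2 of Mog, Mag and Mobp and at most 1 neuroblast marker, median 4634 UMIs) passed the same limit, or 1.12% (0.890% to 1.40%), against 34.8% of neuroblasts at a median of 3462 UMIs. The share in oligodendrocytes was highest at 1 month, with 4 of 35 cells. The 8 libraries held 4861883 to 43826338 UMIs each, with medians of 1960 to 7636.5 UMIs per barcode. No barcode sequence was shared between libraries among the neuroblasts of both states. Intervals of shares cover counting error only.

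**Figure D1:**
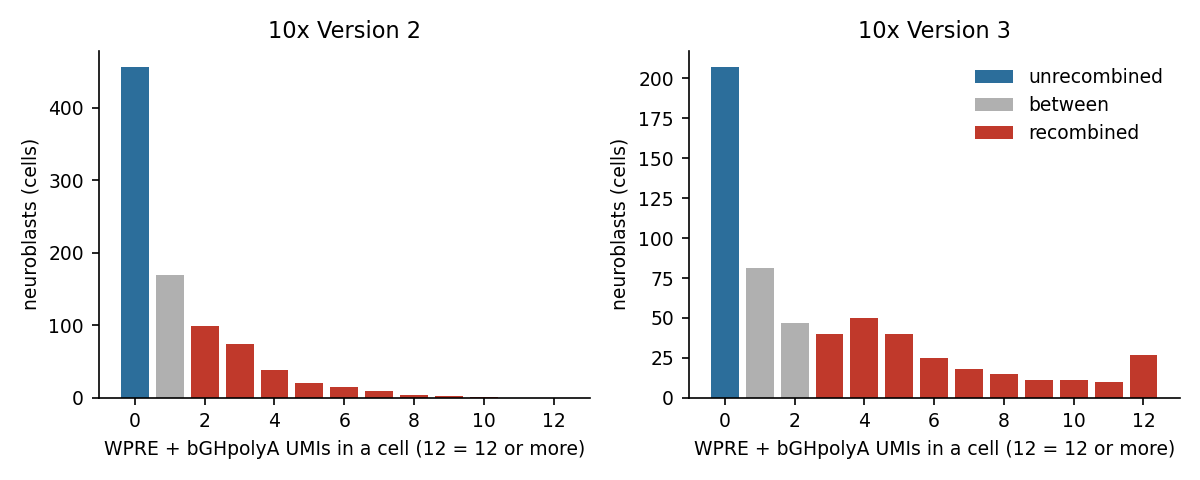
Neuroblasts by their number of WPRE and bGHpolyA UMIs (x axis, UMIs per cell, with 12 standing for 12 or more), counted in cells (y axis), for Version 2 and Version 3 chemistry. Bars at 0 are the unrecombined cells (456 and 207), grey bars the cells left out, and red bars the recombined cells, whose counts fall off with no gap above the limit.

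Recombined neuroblasts had more UMIs per cell than unrecombined ones. The median UMIs per cell, with WPRE and bGHpolyA left out, ranged from 2399.5 to 8347 over the 7 experiments in recombined cells and from 1974 to 7715.5 in unrecombined cells. The recombined median was the higher in 7 of 7 experiments, by 0.22 ± 0.11 on the log2 scale (mean ± SD, n = 7, range 0.11 to 0.43, two-sided exact sign-flip test p = 0.0156, the smallest this design allows). A cell of more UMIs passes the reporter limit more readily, so depth and state cannot be told apart. The gene comparisons were repeated on 470 pairs of a recombined and an unrecombined cell of the same experiment, matched by depth. Every cell of the rarer state in an experiment was paired, so these were mostly the same cells as in the main comparison. The recombined median stayed the higher, at 4109 against 3726 UMIs. These pairs, called cells of similar depth below, thus did not remove the difference in depth, and their values are no full control for it.

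The sequence of the intact reporter allele was much scarcer in recombined neuroblasts. The feature tdTomatoLoxP, the floxed 5′ part of the tdTomato allele, was read per experiment and state in CPM (summed UMIs scaled to a total of 1000000). In unrecombined cells it was lowest at 836 CPM, had a median of 1575 CPM and was highest at 2520 CPM, and in recombined cells it was lowest at 64.5 CPM, had a median of 359 CPM and was highest at 936 CPM. The recombined value was the lower in 7 of 7 experiments, although the ranges of the states overlapped across experiments. The log2 difference was -2.20 ± 0.10 (SE, adjusted p = 8.71e-29, edgeR quasi-likelihood test with experiment as a block). With each cell thinned to 1500 UMIs, 18.2% of 499 recombined and 72.1% of 595 unrecombined neuroblasts held a tdTomatoLoxP UMI (36.5% of 513 and 80.5% of 663 unthinned), with 14 and 68 shallower cells left out. The feature comes from the same allele as the elements that chose the groups, so this is a check of the call within 1 locus. The study also asked that a recombined cell hold fewer than 4 intact-allele UMIs (8 in Version 3), a limit not used for the states here. Of the 513 recombined neuroblasts, 43 were at or over it. With this limit added, 39 genes were called in the comparison below.

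Gt(ROSA)26Sor, the noncoding gene that hosts the transgene, was lower in recombined neuroblasts as well. It lies at chr6:113067428-113077333 (mm10, GRCm38, minus strand), and its annotated span overlaps the 3′ end of Thumpd3 (chr6:113046225-113068273, plus strand). Its level had a minimum of 84.7, a median of 121 and a maximum of 144 CPM over the unrecombined sums, against 29.4, 54.3 and 65.8 CPM over the recombined sums. Every unrecombined experiment thus lay above every recombined one. The log2 difference was -1.42 ± 0.15 (SE, adjusted p = 2.80e-10). The flanking genes, added after these values were seen, were Setd5, a chromatin regulator at chr6:113077365-113153435, with a log2 difference of -0.32 ± 0.15 (adjusted p = 0.56), and Thumpd3, which was too low for the main fit and had a log2 difference of 0.00 ± 0.25 (adjusted p = 1.00) in the fit with no filter on the share of cells. Neither passed the test.

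eGFP, read from the Nestin-GFP transgene, did not pass the test. It ranged from 33.6 to 241 CPM in recombined and from 29.1 to 188 CPM in unrecombined sums, with medians of 124 and 135 CPM. The log2 difference was -0.01 ± 0.13 (SE, adjusted p = 1.00), and recombined cells were the higher in 4 of 7 experiments. In the first experiment at 2 months, where the states came mainly from differently sorted libraries, eGFP stood at 33.6 CPM in recombined and 123 CPM in unrecombined cells. Mki67, whose promoter drives the Cre, and Nes, the gene behind the GFP label, did not reach the level needed for the main fit. Mki67 lay between 0 and 12.6 CPM in recombined and between 0 and 24.9 CPM in unrecombined sums, with a log2 difference of -0.46 ± 0.60 (adjusted p = 0.96) in the fit with no filter on the share of cells. Nes lay between 0 and 10.7 CPM and between 0 and 7.59 CPM, with a log2 difference of 0.38 ± 0.61 (adjusted p = 0.97). Both genes were thus near the detection limit in neuroblasts of either state. For Mki67 this is no separate result, because the choice of cells had limited cycle genes in both states.

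**Figure D2:**
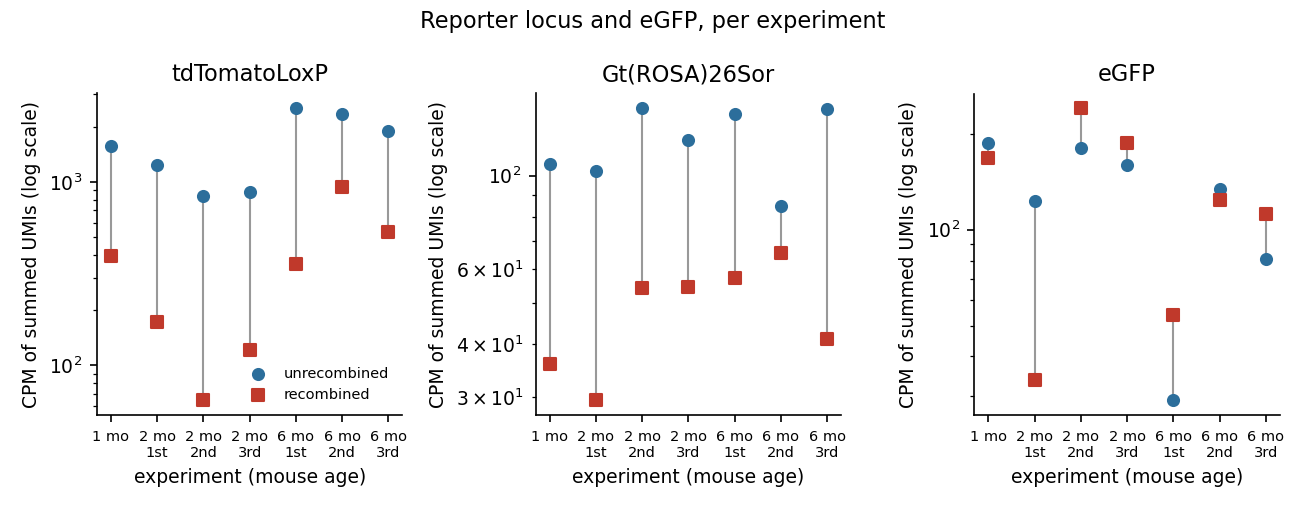
Level of tdTomatoLoxP, Gt(ROSA)26Sor and eGFP (y axis, CPM of summed UMIs, log scale) in each of the 7 experiments (x axis, by mouse age and order), as 1 point per experiment for unrecombined (blue circles) and recombined (red squares) neuroblasts joined by a line. Red lies below blue in every experiment for the first and second of these features, while for eGFP the order changes and the first experiment at 2 months has the widest gap.

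Across the transcriptome, 3841 genes were detected in 20% or more of recombined or of unrecombined cells and were tested. Of these, 12 were called higher (0.312%) and 21 lower (0.547%) in recombined neuroblasts at an adjusted p under 0.05, and the median log2 difference over all genes tested was 0.00. Among the 12 was Sox11, a neuronal transcription factor that the choice of cells had used. In pairs of similar depth 14 genes were called higher (0.373%) and 20 lower (0.533%) of 3753, and 23 of these 34 were also called over all cells. Of the 33, 9 were called whichever experiment was left out (tdTomatoLoxP, Gt(ROSA)26Sor, Tuba1a, Tob1, Apoe, S100a16, Ptprz1, Dbi and Qk), and 24 lost the call in at least 1 such fit; 10 calls in all were left without the third experiment at 6 months. Besides tdTomatoLoxP and Gt(ROSA)26Sor, the genes with the smallest p that moved in 1 direction in every experiment were Tuba1a, Tob1, Ier2, Tubb2a, Ccng2 and Stmn1 among those higher, and S100a16, Cd81, Rprm, Tmem108, Sema5a, Akr7a5 and Malat1 among those lower.

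Not all cells that met the rule were alike, and some of the genes called lower changed in value when part of the cells was left out. Of the 10 genes of an oligodendrocyte precursor list (Cspg4, Olig1, Olig2, Sox10, C1ql1, Gpr17, Lhfpl3, Neu4, Cspg5, Bcan), most neuroblasts held 0 to 2, and fewer held 3 or more. There was no gap at this limit. Of recombined and unrecombined cells, 28 and 16 held 2 of the genes, 6 and 5 held 3, and 10 and 21 held all 10. Cells with 3 or more, named precursor-like here, numbered 24 of 513 recombined (4.68%, exact 95% interval 3.02% to 6.88%) and 47 of 663 unrecombined cells (7.09%, 5.25% to 9.32%). Pooled over the experiments, they had medians of 12948 UMIs in the recombined and 6528 in the unrecombined, against 4291 and 2980 UMIs in the other neuroblasts. The experiments differed in depth and chemistry, and precursor-like cells were spread unevenly over them. In the 3 experiments at 2 months, of Version 2 chemistry, there were 0, 0 and 2 recombined and 4, 4 and 9 unrecombined ones. They made up 22.2% of recombined and 23.3% of unrecombined neuroblasts in the second experiment at 6 months, and 11.1% and 26.2% in the third. The shares were 6.84% and 11.7% at 1 month, and 2.5% and 0% in the first experiment at 6 months. Depth and markers of the precursor-like cells were not compared within experiments. Of the 24 recombined ones, 24 held all 5 neuroblast markers and 16 held intact-allele UMIs at or over the limit by which the study set recombined cells apart, against 13 and 30 of the 47 unrecombined ones. Olig1, a transcription factor of the oligodendrocyte lineage, stood at 1840 CPM over the precursor-like cells and at 16.2 CPM over the others. It is a member of the list that chose these cells, so this gap followed from the choice. Prox1, a factor of granule neurons outside that list, stood at 289 and 463 CPM. No doublet caller was run, and the part of doublets among these cells was not tested.

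The sums of the precursor list were mostly lower in recombined cells, but their ranges overlapped between the states and 0 of its genes were tested. All 10 of its genes were detected among the neuroblasts, and their summed level was lower in recombined cells in 6 of 7 experiments, from 42.1 to 3132 CPM against 11.6 to 4393 CPM in unrecombined cells. In the first experiment at 6 months the order was the other way, at 237 and 11.6 CPM, with 1 precursor-like cell among the recombined and 0 among the unrecombined. Without the precursor-like cells the sums came to 14.9 to 162 and 11.6 to 167 CPM. This fall followed from the choice, since the same list had picked out the cells removed. The comparison was therefore repeated without these cells, a choice made after the data had been seen. Of 3618 genes 9 were then called, 5 higher (0.138%) and 4 lower (0.111%). Of the 9, 7 had also been called over all cells, among them Apoe in the opposite direction.

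Glial genes were among those whose values changed when these cells were left out. The cells left out had been picked by precursor genes, so genes abundant in them fall in level by that choice. Apoe, for example, stood at 4528 CPM over the precursor-like cells and at 254 CPM over the others. The shifts below are thus a description and no separate evidence on their source. Apoe, the lipid carrier of astrocytes and stem cells, ranged from 86.1 to 1440 CPM in recombined and from 134 to 2276 CPM in unrecombined sums. Its log2 difference was -0.74 ± 0.09 (adjusted p = 4.76e-08), and it turned to 0.60 ± 0.14 (adjusted p = 0.0317) without the precursor-like cells, when 4 of 7 experiments were higher. Cells with 4 or more genes of an astrocyte list or 3 or more of a list of GABAergic neurons and subventricular neuroblasts were then left out as well, also a choice made after the data had been seen, and Apoe was at -0.20 ± 0.12 (adjusted p = 0.77). The higher value of Apoe thus did not hold without these cells. With only the precursor-like cells left out, the astrocyte list summed to 522, 401 and 470 CPM in recombined against 229, 303 and 227 CPM in unrecombined cells of the first and second experiments at 2 months and the third at 6 months, and their part in the value of Apoe was not otherwise tested. Ptprz1, a receptor phosphatase of radial glia and precursors, went from -0.67 ± 0.10 (adjusted p = 4.01e-06) to 0.15 ± 0.17 (adjusted p = 0.95), and to -0.14 ± 0.17 (adjusted p = 0.94) without the cells of all 3 other types. Dbi, an acyl-CoA binding protein rich in glia, went from -0.58 ± 0.09 (adjusted p = 2.86e-05) to -0.11 ± 0.12 (adjusted p = 0.95). S100a16, a calcium-binding protein, fell in 7 of 7 experiments over all cells, with medians of 156 and 241 CPM and a log2 difference of -0.86 ± 0.12 (adjusted p = 5.13e-07). Without the precursor-like cells its medians were 58.3 and 67.6 CPM and the log2 difference was -0.12 (adjusted p = 0.95). Cd81, a tetraspanin membrane protein, went likewise from -0.30 ± 0.07 (adjusted p = 0.0106) to -0.08 (adjusted p = 0.91), and Cnp, an enzyme of oligodendrocytes, from -0.65 ± 0.17 (adjusted p = 0.0412) to -0.20 ± 0.18 (adjusted p = 0.90).

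As a group, 8 of the 29 genes of the stem cell and radial glia list were tested, of which 0 were called higher and 3 lower (Apoe, Ptprz1, Dbi). Of all genes tested, 0.312% were called higher and 0.547% lower. The median log2 difference of the 8 was -0.21 beside 0.00 over all genes. Without the precursor-like cells 7 were tested, 1 was called higher (Apoe) and 0 lower, and the median was 0.15 beside -0.01 over all genes, while Apoe and Ptprz1 stood below 0 once the cells of all 3 other types were left out. Levels of the other lists of foreign cell types overlapped between the states, as those of the precursor list did. The astrocyte list summed to 219 to 576 CPM in recombined and 256 to 595 CPM in unrecombined cells, and the oligodendrocyte list to 92.5 to 1841 and 210 to 1896 CPM. Both lists were lower in recombined cells in 5 of 7 experiments. The microglial list reached at most 227 and 37.6 CPM, the endothelial and mural list 145 and 64.5 CPM, and the list of GABAergic neurons and subventricular neuroblasts 299 and 246 CPM. In the Cajal-Retzius and glutamatergic list, 139 to 331 and 131 to 319 CPM were found, with 3 of its 10 genes at 0.

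**Figure D3:**
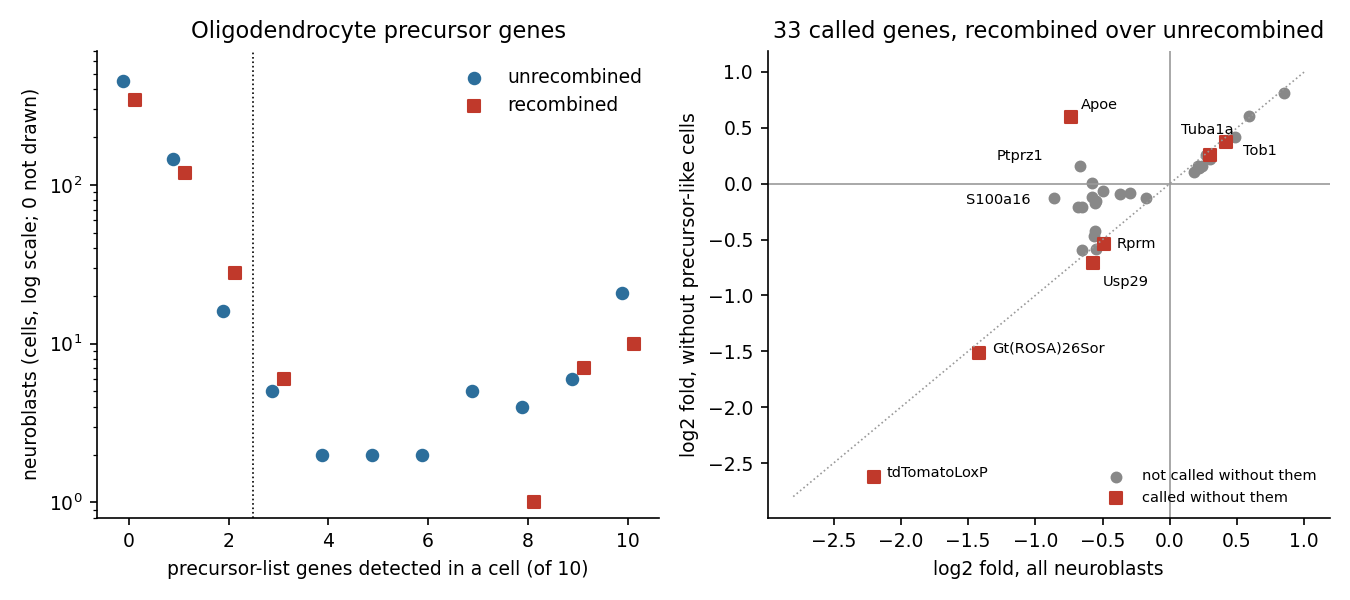
Left, neuroblasts by the number of oligodendrocyte precursor genes detected (x axis, of 10) in cells (y axis, log scale, counts of 0 not drawn), with the dotted line at the limit for precursor-like cells. Right, log2 difference between recombined and unrecombined neuroblasts of the 33 called genes over all cells (x axis) and without the precursor-like cells (y axis), with red squares for genes called in both. Genes near the dotted diagonal keep their value. Apoe, called lower over all cells and higher without the precursor-like cells, and Ptprz1 cross zero.

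Tubulin genes, which encode the subunits of microtubules, were grouped after their values were seen. Of 9 tested, 5 were called higher in recombined neuroblasts over all cells, beside 0.312% of all genes tested. Without the precursor-like cells 1, Tuba1a, was called, beside 0.138% of all genes called higher. The log2 difference was positive for 9 of 9, both over all cells and without the precursor-like ones. Of all genes tested it was positive for 1888 of 3841 and for 1751 of 3618. Tuba1a, the main alpha-tubulin of young neurons, had a minimum of 8478, a median of 9926 and a maximum of 10576 CPM in recombined sums, against 6339, 8201 and 9599 CPM in unrecombined sums. It was higher in 7 of 7 experiments, with a log2 difference of 0.30 ± 0.05 (SE, adjusted p = 4.45e-05), 0.29 in cells of similar depth (adjusted p = 5.39e-05) and 0.26 ± 0.04 without the precursor-like cells (adjusted p = 4.86e-05). Within the 4 experiments of Version 3 chemistry the value was 0.26 (adjusted p = 0.00175), and within the 3 of Version 2 it was 0.37 (adjusted p = 0.0221).

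Other tubulin genes were called over all cells but fell short of the threshold without the precursor-like cells. Tubb2a, a beta-tubulin, ran from 320 to 682 CPM in recombined and from 266 to 567 CPM in unrecombined sums and was higher in 7 of 7 experiments. Its log2 difference was 0.27 ± 0.07 (adjusted p = 0.0452) over all cells and 0.26 ± 0.07 (adjusted p = 0.13) without the precursor-like ones, and 0.26 (adjusted p = 0.0698) in cells of similar depth. Tubb5, Tubb2b and Tubb3, the last a textbook marker of neurons, had log2 differences of 0.21, 0.21 and 0.24 (adjusted p = 0.0251, 0.0309 and 0.0412), and 0.14, 0.15 and 0.16 (adjusted p = 0.27, 0.15 and 0.30) without those cells. Of the 17 tubulin genes in the table, a group put together after their values were seen, 9 were tested. Over all cells 5 were called higher and 0 lower, with 0.312% of all genes called higher, and the median log2 difference was 0.27 beside 0.00 over all genes. Without the precursor-like cells 1 was called, and the median was 0.26 beside -0.01. Near-identical tubulin copies share sequence, and how reads between them were assigned is not known here.

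The promoters of the called tubulin genes are shown because these genes were called higher over all cells. Tubb5, Tubb2b and Tubb3 were not higher in every experiment, and whether the genes moved together was not tested. RefSeq sequences (GRCm38.p6, 250 bases before to 50 after the start) were at hand for 4 of the 5, and capitals mark each CANNTG, the E-box core bound by proneural factors such as Neurod1.
Tuba1a (chr15:98953452-98953751, minus strand): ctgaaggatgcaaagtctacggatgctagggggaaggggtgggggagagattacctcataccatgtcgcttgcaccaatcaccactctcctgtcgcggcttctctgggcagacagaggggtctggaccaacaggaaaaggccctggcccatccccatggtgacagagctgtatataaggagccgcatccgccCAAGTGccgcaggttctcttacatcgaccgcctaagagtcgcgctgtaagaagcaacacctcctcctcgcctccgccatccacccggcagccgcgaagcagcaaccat
Tubb5 (chr17:35838252-35838551, minus strand): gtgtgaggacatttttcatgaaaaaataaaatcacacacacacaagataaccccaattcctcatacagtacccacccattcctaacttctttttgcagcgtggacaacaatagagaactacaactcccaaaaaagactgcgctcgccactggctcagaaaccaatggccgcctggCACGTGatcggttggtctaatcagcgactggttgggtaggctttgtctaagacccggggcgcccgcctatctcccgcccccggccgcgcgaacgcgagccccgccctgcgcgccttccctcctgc
Tubb3 (chr8:123411303-123411602, plus strand): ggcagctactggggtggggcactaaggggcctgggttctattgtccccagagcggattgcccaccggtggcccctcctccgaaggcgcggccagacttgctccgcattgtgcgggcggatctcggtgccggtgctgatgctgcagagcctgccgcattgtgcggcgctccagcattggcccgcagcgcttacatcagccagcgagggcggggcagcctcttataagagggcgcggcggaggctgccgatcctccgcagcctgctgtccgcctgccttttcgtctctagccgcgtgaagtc
Tubb2a (chr13:34077959-34078258, minus strand): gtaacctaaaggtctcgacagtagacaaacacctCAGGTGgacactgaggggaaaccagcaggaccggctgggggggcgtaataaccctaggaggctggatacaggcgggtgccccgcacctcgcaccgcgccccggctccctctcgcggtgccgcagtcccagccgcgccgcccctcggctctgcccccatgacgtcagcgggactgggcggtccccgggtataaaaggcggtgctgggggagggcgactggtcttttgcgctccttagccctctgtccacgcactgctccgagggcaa
A CANNTG stood once in the windows of Tuba1a, Tubb5 and Tubb2a and 0 times in that of Tubb3, while 72.3% of the 32851 promoter windows of this length held at least 1 (the motif reads the same on both strands). CAGATG, searched on both strands and a case of CANNTG, was in 0 of these 4 windows and in 17.2% of all windows. These are matches of letters only.

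The tubulin, stathmin and neurite growth list holds tubulin genes counted above as well, and 27 of its 30 genes were tested. Of these, 5 were called higher and 0 lower, beside 0.312% and 0.547% of all genes tested. Apart from Stmn1, the called genes were tubulins already counted above, so the count is not separate from theirs. A positive log2 difference was found for 22, with a median of 0.10 beside 0.00 over all genes. Without the precursor-like cells 1 of 27 was called (Tuba1a) and 21 were positive, with a median of 0.06 beside -0.01 over all genes. Stmn1, which regulates microtubule turnover, was among the 5, at 4678 to 6120 CPM in recombined and 3707 to 5559 CPM in unrecombined cells, higher in 7 of 7 experiments, with a log2 difference of 0.18 ± 0.05 (adjusted p = 0.0468). It was 0.11 ± 0.04 (adjusted p = 0.48) without the precursor-like cells and 0.17 (adjusted p = 0.0998) in cells of similar depth. Stmn3 (0.02 ± 0.06), Gap43 (-0.01 ± 0.12), a growth cone protein, and Dpysl2 (0.00 ± 0.07) did not pass the test. Members of this list were not tested against each other.

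Tob1, an antiproliferative factor of the BTG/TOB family, was higher in recombined neuroblasts. Its gene lies at chr11:94211454-94215495 (GRCm38, plus strand). It had a minimum of 172, a median of 284 and a maximum of 469 CPM in recombined and of 135, 227 and 330 CPM in unrecombined sums. The log2 difference was 0.42 ± 0.09 (adjusted p = 0.00431), higher in 7 of 7 experiments, and 0.37 ± 0.09 (adjusted p = 0.0325) without the precursor-like cells. Within a single chemistry the test did not pass, at 0.33 (adjusted p = 0.35) in Version 3 and 0.52 (adjusted p = 0.0673) in Version 2. Btg2, of the same family, had a log2 difference of 0.30 ± 0.10 (adjusted p = 0.15). Ccng2, a cyclin linked to cell cycle exit, had medians of 134 and 69.9 CPM and a log2 difference of 0.48 ± 0.13 (adjusted p = 0.0455), and of 0.41 (adjusted p = 0.27) without the precursor-like cells.

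Rprm, which encodes Reprimo, a p53-induced mediator of cell cycle arrest, was lower. It lies at chr2:54084093-54085552 (GRCm38, minus strand). Recombined sums had a minimum of 62.5, a median of 98.5 and a maximum of 135 CPM, and unrecombined sums had 95.8, 147 and 169 CPM. The log2 difference was -0.49 ± 0.12 (adjusted p = 0.0292), lower in 7 of 7 experiments, and -0.54 ± 0.13 (adjusted p = 0.0325) without the precursor-like cells. Usp29, a paternally expressed imprinted gene named here after its values were seen, was lower in 6 of 7 experiments, at medians of 71.4 and 91.9 CPM, with a log2 difference of -0.57 ± 0.15 (adjusted p = 0.0455). It was -0.71 ± 0.16 (adjusted p = 0.0317) without the precursor-like cells, lower in 7 of 7.

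**Figure D4:**
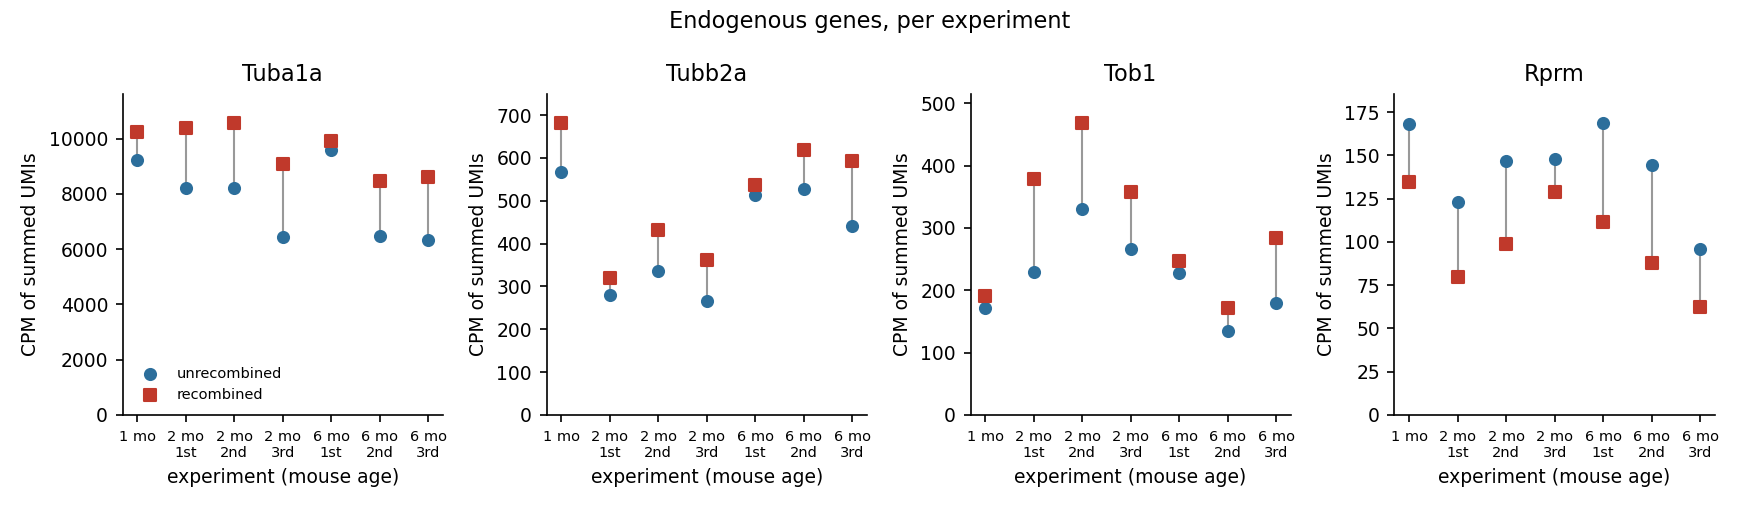
Level of Tuba1a, Tubb2a, Tob1 and Rprm (y axis, CPM of summed UMIs, from 0) in each of the 7 experiments (x axis, by mouse age and order), with unrecombined neuroblasts as blue circles and recombined ones as red squares joined by a line. Tuba1a, Tubb2a and Tob1 lie higher and Rprm lower in recombined cells in every experiment, and the ranges of the states overlap across experiments.

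Another 4 genes lower in 7 of 7 experiments passed neither without the precursor-like cells nor in cells of similar depth. Tmem108, a membrane protein of neurons, had medians of 68.1 and 99.0 CPM and a log2 difference of -0.55 ± 0.14 (adjusted p = 0.0448), then -0.58 (adjusted p = 0.11) without the precursor-like cells and -0.56 (adjusted p = 0.0507) in cells of similar depth. Sema5a, a semaphorin guidance protein, had medians of 64.3 and 105 CPM and a log2 difference of -0.56 ± 0.15 (adjusted p = 0.0455), then -0.47 (adjusted p = 0.34) and -0.45 (adjusted p = 0.22). Akr7a5, an aldo-keto reductase, had a log2 difference of -0.65 ± 0.17 (adjusted p = 0.0455), then -0.59 (adjusted p = 0.27) and -0.56 (adjusted p = 0.15). Malat1, a nuclear long noncoding RNA, stood at medians of 41344 and 44232 CPM, with a log2 difference of -0.18 ± 0.05 (adjusted p = 0.0468), then -0.13 (adjusted p = 0.30) and -0.12 (adjusted p = 0.44).

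Immediate early genes, which respond within minutes to stimulation and also to tissue dissociation, were mostly on the higher side. Of 22 listed, 10 were tested, and 1 was called higher and 0 lower, beside 0.312% and 0.547% of all genes tested. Of the 10, 9 had a positive log2 difference, with a median of 0.22 beside 0.00 over all genes. The called gene was Ier2, with 640 to 867 CPM in recombined and 482 to 733 CPM in unrecombined sums, higher in 7 of 7 experiments, and a log2 difference of 0.30 ± 0.07 (adjusted p = 0.0189). Without the precursor-like cells Ier2 was at 0.22 (adjusted p = 0.29), and Jun, an AP-1 subunit, was the called member at 0.37 ± 0.09 (adjusted p = 0.0325), higher in 5 of 7 experiments. Fos and Egr1 were at 0.23 ± 0.07 (adjusted p = 0.13) each over all cells. The mitochondrially encoded genes, a usual gauge of cell quality, summed to 23582 to 39380 CPM in recombined and 27678 to 40040 CPM in unrecombined cells and were the lower in recombined cells in 6 of 7 experiments. Of their 12 tested members 11 had a negative log2 difference and 0 were called, with a median of -0.07 beside 0.00 over all genes. Their part in the values above was not tested. Cst3, a secreted protease inhibitor outside the lists and named after its values were seen, was called without the precursor-like cells, at 0.54 ± 0.08 (adjusted p = 1.84e-05, higher in 6 of 7 experiments), but was at 0.16 ± 0.08 (adjusted p = 0.65) without the cells of all 3 other types.

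Lists of neuronal commitment and maturation yielded few calls, and so did all genes tested, at 0.312% higher and 0.547% lower. Counts of 0 or 1 in lists of this size were thus not read as a result about the lists. Of 12 tested genes of early neuronal commitment 0 were called, and the median log2 difference was 0.12 over all cells and 0.03 without the precursor-like ones. Sox4, a partner of Sox11 in neuronal differentiation, was at 0.06 ± 0.05 (adjusted p = 0.85), Hes6 at -0.19 ± 0.09 (adjusted p = 0.58) and Elavl2 at 0.29 ± 0.08 (adjusted p = 0.082). Of 13 tested genes of immature granule neurons 1 was called higher (Tubb3) and 0 lower, with medians of 0.10 and -0.03. Calb2, the calretinin of immature granule neurons, had medians of 1474 and 1156 CPM and a log2 difference of 0.09 ± 0.07 (adjusted p = 0.84), and Prox1 was at 0.10 ± 0.08 (adjusted p = 0.81). Of 10 tested synaptic and mature granule neuron genes 0 were called, with medians of -0.11 and -0.05. Camk2b, a synaptic kinase, was lower in 7 of 7 experiments at -0.36 ± 0.14, which did not pass (adjusted p = 0.36).

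Of 11 tested cell cycle genes that the choice of cells had not used, 0 were called, with a median log2 difference of 0.05. The choice had limited other cycle genes in both states, so these genes could differ little and give no separate reading of cycling. Cdkn1b, an inhibitor of cell cycle entry, was at 0.12 ± 0.11 (adjusted p = 0.85) and Cdk4, a kinase of G1, at 0.06 ± 0.07 (adjusted p = 0.91). Of 12 tested migration and guidance genes and 23 chromatin and nuclear factor genes, 0 and 0 were called. Their medians were 0.05 and 0.11, and 0.01 and 0.05 without the precursor-like cells. These counts stand beside 0.312% of all genes tested called higher and 0.547% lower. The neuroblast markers of the rule had a median log2 difference of 0.15, given as a description because they chose the cells, and 0.06 without the precursor-like cells.

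Whether the effect of state changed with age was tested as an interaction between 2 and 6 months. Of 3337 genes, 0 (0%) were called by edgeR, and 195 had an unadjusted p under 0.05. The difference for tdTomatoLoxP was 1.18 ± 0.24 (adjusted p = 0.0627), a positive value standing for a smaller depletion at 6 months, which did not pass. In the Version 3 experiments alone its log2 difference between the states was -1.93 and in the Version 2 experiments alone -3.11. For Tuba1a the difference between ages was -0.09 ± 0.10 (adjusted p = 0.98). The 1-month experiment had no replicate and was left out of this test.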

How the data were processed

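Deposited UMI counts came from the authors as 1 merged matrix of 31058 features and 26036 barcodes. Per the labels and the study's methods, reads were trimmed (cutadapt 1.18) and counted with Cell Ranger 3.0.2 on mm10 with added reporter sequences, and the study removed doublets by markers; no such removal was applied to the cells here. All 8 libraries were mapped by barcode suffix. UMIs were summed per experiment and state (libraries of the first 2-month experiment together) without WPRE and bGHpolyA, for experiments with at least 5 cells of each state. Genes detected in 20% or more of the cells of a state were tested with edgeR 4.0.16 (R 4.3.3; TMM, quasi-likelihood, experiment as a block, Benjamini-Hochberg at 0.05). States of an experiment came from the same pooled mice, which is the source of the pairing. Precision is limited by the smallest sum of an experiment and state, 171793 UMIs. Alternatives are given in the closing section. tdTomatoCDS held 0 UMIs. CPM are summed UMIs scaled to a total of 1000000. Named genes were those called with the same direction in every experiment (at most 15 of smallest p each way, without genes of the rule, mitochondrial, ribosomal or Gm names) and members of the lists as examples. The script was tested on simulated counts with a dispersion of 0.01, above the fitted common value of 0.0034. Of changes of 0.3, 0.6 and 1.2 on the log2 scale, 15.5%, 70.1% and 100% were recovered, and 3.44% of calls were false. Small differences that did not pass could thus have been missed. Members and lists were chosen with earlier results of these data known.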

Additional observations from a re-analysis of the deposited data

Results flagged for a closer look

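Over the 7 experiments, 18 values were checked for an experiment set apart from the others by a gap, relative to the whole range, above Dixon's critical value, and 2 were found; chance alone gives about 1 in 20. For Ccng2 the log2 difference between recombined and unrecombined neuroblasts (CPM plus 10) was 1.17 in the third experiment at 6 months, against a median of 0.45 over the experiments. Without that experiment the log2 difference of Ccng2 was 0.37 and was not called, and the call was also lost in 5 of the 6 other fits that left out 1 experiment. For eGFP the log2 difference was -1.61 in the first experiment at 2 months, against a median of 0.22; there 58 of 62 recombined neuroblasts came from the library labelled GFP+tdT+ and GFP-tdT-, and 120 of 133 unrecombined ones from the GFP+tdT- library. The part of the sort in this value was not tested.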

How the results depend on the processing

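Of 33 genes called (12 higher, 21 lower), the count was 26 with total UMIs in place of TMM (14 higher, 12 lower), 11 with DESeq2, 100 of 6369 with edgeR's own filter, 136 of 11979 with no filter beyond 10 UMIs, and 1 (Gt(ROSA)26Sor) with no replicate block. The experiments of Version 3 alone gave 34 and those of Version 2 alone 3. By the choice of cells, it was 20 with unrecombined cells that held an intact-allele UMI, 15 with WPRE alone, 7 with bGHpolyA alone (0 higher), 8 with at least 4 of 5 markers, 11 without any counted cycle gene (0 higher), 9 without any counted gene of another lineage, and, chosen after seeing the data, 9 without precursor-like cells and 7 without cells of 3 other types. With at least 4 of 5 markers S100a16 was at -0.02, Cd81 at 0.03 and Stmn1 at 0.07, none of them called, and Tuba1a was at 0.22 and called. The causes were not tested. Leaving out each experiment gave 10 (without the third at 6 months) to 38 calls (without the first at 2 months); it was 14 without the 1-month experiment, 16 without the third at 2 months and 13 without the second at 6 months. In cells of similar depth the range was 11 to 35, with 11, 19 and 21 calls without the third and first experiments at 6 months and the third at 2 months, and 8 calls came without precursor-like cells. The interaction gave 1 call, tdTomatoLoxP, without the first experiment at 6 months and otherwise 0 (range 0 to 1). tdTomatoLoxP, Gt(ROSA)26Sor, Tuba1a and Tob1 were called whichever experiment was left out. The call of Ier2 was lost in 3 of 7 such fits (without the first or the third at 2 months or the second at 6 months, 0.22 to 0.37), of Cd81 in 3 (without 1 month or the second or the third at 6 months, -0.33 to -0.24), of Tubb5 and Tubb2b in 4, of Rprm (-0.57 to -0.46), Tubb2a (0.24 to 0.30) and Sema5a in 5, of Ccng2, Tmem108 and Stmn1 in 6, for each gene from Tubb5 on including the second and the third experiment at 6 months, and of Malat1 in 7. With bGHpolyA alone Tuba1a and Tob1 were both at 0.06 (adjusted p = 1.00). The difference in UMIs per cell kept its sign and call under the alternatives run (0.18 to 0.23). A deeper cell passes the reporter limit more readily under each of them, so this is a description and no separate evidence. Genes per cell differed by 0.13, higher in 6 of 7 experiments (exact sign-flip p = 0.0313).

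Signs turned for Stmn1 with bGHpolyA alone (-0.028), for Cd81 with at least 4 of 5 markers (0.028), and for eGFP, which ranged from -0.36 (with the study's limit on the intact allele) to 0.36, with total UMIs (0.0063), edgeR's filter (0.028), no filter (0.042), Version 3 alone (0.043), a doubled reporter limit (0.20), WPRE alone (0.017), at least 4 markers (0.36), without precursor-like cells (0.029), without 3 other types (0.15) and leaving out 1 experiment (-0.10 to 0.13, the highest without the first at 2 months). Over the 16 named genes and their alternatives, 204 of 416 values kept direction and side of the threshold, 198 lost the call and 14 changed sign.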
